A study of Mus musculus with 16 samples.

Results

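The comparison described here is that of the liver libraries labelled CKO with NOX_6_18 treatment and those labelled CKO with vehicle, 2 libraries in each group and 4 of the 16 libraries of the series. The libraries were chosen by their titles alone. CKO denotes the genotype Lyz2_cre+/_GPR132fl/fl and NOX_6_18 is an antagonist of the receptor GPR132. All mice of the series were on a C57BL/6 background and on a high-fat diet (HFD), and the other liver groups were GPR132fl/fl mice (fl/fl) with NOX_6_18 and fl/fl mice with vehicle, 2 libraries each. The same 4 groups were sequenced from white adipose tissue (WAT). The comparison addresses which liver transcripts respond to the antagonist when its receptor gene has been targeted in Lyz2-expressing cells. Dose, duration, age and sex are not given in the labels. Nothing in the labels ties a library to its own animal, so that p-values measure only the spread between libraries, which may be technical.

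GPR132 is a G protein-coupled receptor of macrophages and lymphocytes that belongs to the family of proton-sensing receptors and responds to oxidised fatty acids such as hydroxylated linoleate. Lyz2-cre drives recombination in monocytes, macrophages and neutrophils, so that other cells that express the gene, lymphocytes among them, keep it. Kupffer cells are the resident macrophages of the liver sinusoids, where they lie beside fenestrated endothelial cells and hepatocytes.

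The 4 CKO liver libraries held 50226217 and 51467219 counts with NOX_6_18, against 60761705 and 58737235 counts with vehicle. Values below are CPM, in which each count is divided by the scaled size of its library. A gene was called when the edgeR quasi-likelihood test, fitted over the 8 liver libraries, gave a Benjamini-Hochberg adjusted p under 0.05. The 2 fl/fl vehicle livers of this fit stood apart from the other 6 livers, as the map of library pairs shows, and without them in the fit all 7 genes called below remained called, with Ets1, Zbtb20 and Fgf2 added. The series design names macrophages of liver as the source, whereas the protocol begins with frozen tissue. Kupffer cell identity genes summed to 1473 and 1486 CPM per kb of exon with NOX_6_18, against 1502 and 1484 CPM per kb with vehicle. Hepatocyte markers summed to 2524 and 2520 CPM per kb with NOX_6_18, against 2582 and 2517 with vehicle, and liver endothelial markers to 2704 and 2704 with NOX_6_18, against 2720 and 2686 with vehicle. RNA of hepatocytes and endothelial cells was thus present beside that of macrophages, and none of the members of these 3 lists was at 0 in all 4 libraries. In each of the 4 libraries the endothelial sum was above the hepatocyte sum. Sums over different lists do not give the share of each cell type, which was not measured. In such bulk RNA, fewer cells of a type and less RNA per cell cannot be told apart.

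Gpr132 itself (chr12:112850873-112868228, minus strand, GRCm38) was scarce in liver. It had 2.81 and 2.41 CPM in CKO livers with NOX_6_18, against 1.86 and 1.46 CPM in CKO livers with vehicle, from 144 and 123 counts against 115 and 84 counts. Both NOX_6_18 libraries lay above both vehicle libraries, but the log2 fold change of 0.65 ± 0.24 (SE) did not pass (edgeR quasi-likelihood, adjusted p = 1). In fl/fl livers Gpr132 had 2.13 and 1.64 CPM with NOX_6_18, against 4.26 and 4.04 CPM with vehicle, a log2 fold change of -1.13 ± 0.24 that passed (edgeR quasi-likelihood, adjusted p = 0.0313). The difference between the CKO and the fl/fl response was 1.79 ± 0.34 on the log2 scale and also passed (edgeR quasi-likelihood, adjusted p = 0.0344).

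As a check of the genotype label, Gpr132 was lower in CKO than in fl/fl livers on vehicle by a log2 difference of -1.32 ± 0.24 (edgeR quasi-likelihood, adjusted p = 0.0162). This difference rests on the 2 fl/fl vehicle livers, which stood apart from all other livers, and the fl/fl NOX_6_18 livers, at 2.13 and 1.64 CPM, overlapped with the CKO vehicle livers. Genotype and what sets the fl/fl vehicle group apart cannot be told apart here. Under NOX_6_18 the CKO livers were not lower, with a difference of 0.47 ± 0.24 (edgeR quasi-likelihood, adjusted p = 1). In WAT, where the gene was more abundant, it had 56.5 and 59.1 CPM in CKO with NOX_6_18 and 35.6 and 64.6 CPM in CKO with vehicle, against 60.3 and 60.1 CPM in fl/fl with NOX_6_18 and 72.5 and 69.7 CPM in fl/fl with vehicle. Neither WAT difference between genotypes passed, at -0.06 ± 0.22 with NOX_6_18 and -0.51 ± 0.22 with vehicle (edgeR quasi-likelihood, adjusted p = 1 and 0.115). Which exons are floxed is not given in the sources used here, and a count per gene also includes reads outside a deleted exon. The groups are therefore called by their labels, and Gpr132 did not settle the CKO label in any of the CKO libraries.

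In CKO livers, 7 of 19515 tested genes changed with NOX_6_18, which is 0.0359% of those tested. Of these, 5 rose (0.0256%), Selenoi, Krcc1, Zscan26 and Sema6a among them, and Trim25 and Igfbp4 fell (2 genes, 0.0102%). An unadjusted p under 0.05 was reached by 792 genes, or 4.06%. The median log2 fold change over the 10232 genes with a mean of 5 CPM or more was -0.0025, with quartiles of -0.08 and 0.08, and 47 of these genes (0.459%) moved by 1 log2 unit or more, 21 upward and 26 downward.

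**Figure D1:**
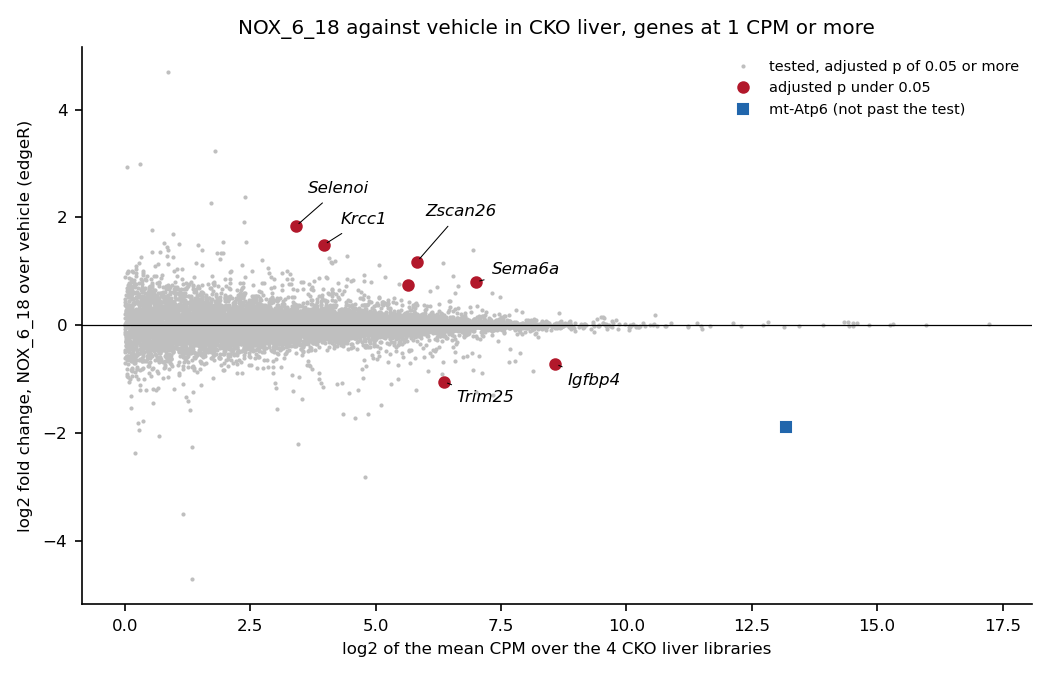
Log2 fold change of NOX_6_18 over vehicle (edgeR, vertical axis) against the log2 of the mean CPM over the 4 CKO liver libraries (horizontal axis), for the 14032 genes with a mean of 1 CPM or more and counts in all 4 libraries. The 7 called genes (red, 6 of them labelled) lie at moderate levels, and mt-Atp6 (blue square) at a log2 fold change of -1.90 was not called.

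Selenoi (chr5:30232581-30272427, plus strand) encodes the ethanolamine phosphotransferase that completes phosphatidylethanolamine synthesis. It had 14.8 and 18.3 CPM in CKO livers with NOX_6_18, against 4.46 and 4.83 CPM with vehicle. It rose by 1.83 ± 0.17 on the log2 scale, the largest estimate among the 7 called genes (edgeR quasi-likelihood, adjusted p = 0.0113). Without vehicle replicate 1 the estimate was 1.77 and the call was lost, with an adjusted p of 0.0652. Krcc1 (chr6:71271677-71285319, plus strand), a lysine-rich coiled-coil gene, had 22.6 and 23.4 CPM with NOX_6_18, against 7.64 and 8.76 CPM with vehicle. It rose by 1.49 ± 0.11 (edgeR quasi-likelihood, adjusted p = 0.00458). Exons of Krcc1 overlap those of Mir8112, so its counts are less certain where reads of both could be assigned.

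Zscan26 (chr13:21442180-21453730, minus strand) encodes a zinc finger protein with a SCAN domain. It had 80.6 and 76.2 CPM in CKO livers with NOX_6_18, against 37.7 and 31.7 CPM with vehicle, and rose by 1.17 ± 0.09 (edgeR quasi-likelihood, adjusted p = 0.00462). Its exons overlap those of Mir1896 and 4930470G03Rik. Sema6a, on the minus strand of chromosome 18, encodes a membrane-bound semaphorin that signals through plexins in axon guidance. It had 162 and 162 CPM with NOX_6_18, against 92.7 and 93.1 CPM with vehicle, and rose by 0.80 ± 0.05 (edgeR quasi-likelihood, adjusted p = 0.00407). The 2 libraries of each group were within 1 CPM of each other for this gene.

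The 2 genes that fell act in signalling and growth factor control. Trim25 (chr11:88999376-89020293, plus strand) encodes an E3 ubiquitin ligase of the RIG-I antiviral pathway. It had 53.1 and 53.6 CPM in CKO livers with NOX_6_18, against 107.9 and 112.6 CPM with vehicle, and fell by 1.05 ± 0.09 on the log2 scale (edgeR quasi-likelihood, adjusted p = 0.00793). Igfbp4 (chr11:99041244-99054392, plus strand) encodes a secreted protein that binds insulin-like growth factors and limits their access to the receptor. It had 289 and 287 CPM with NOX_6_18, against 497 and 450 CPM with vehicle, and fell by 0.72 ± 0.05 (edgeR quasi-likelihood, adjusted p = 0.00407). In each of the 7 genes both NOX_6_18 libraries lay on the same side of both vehicle libraries, a separation that 16.3% of all tested genes showed upward and 16.6% downward.

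**Figure D2:**
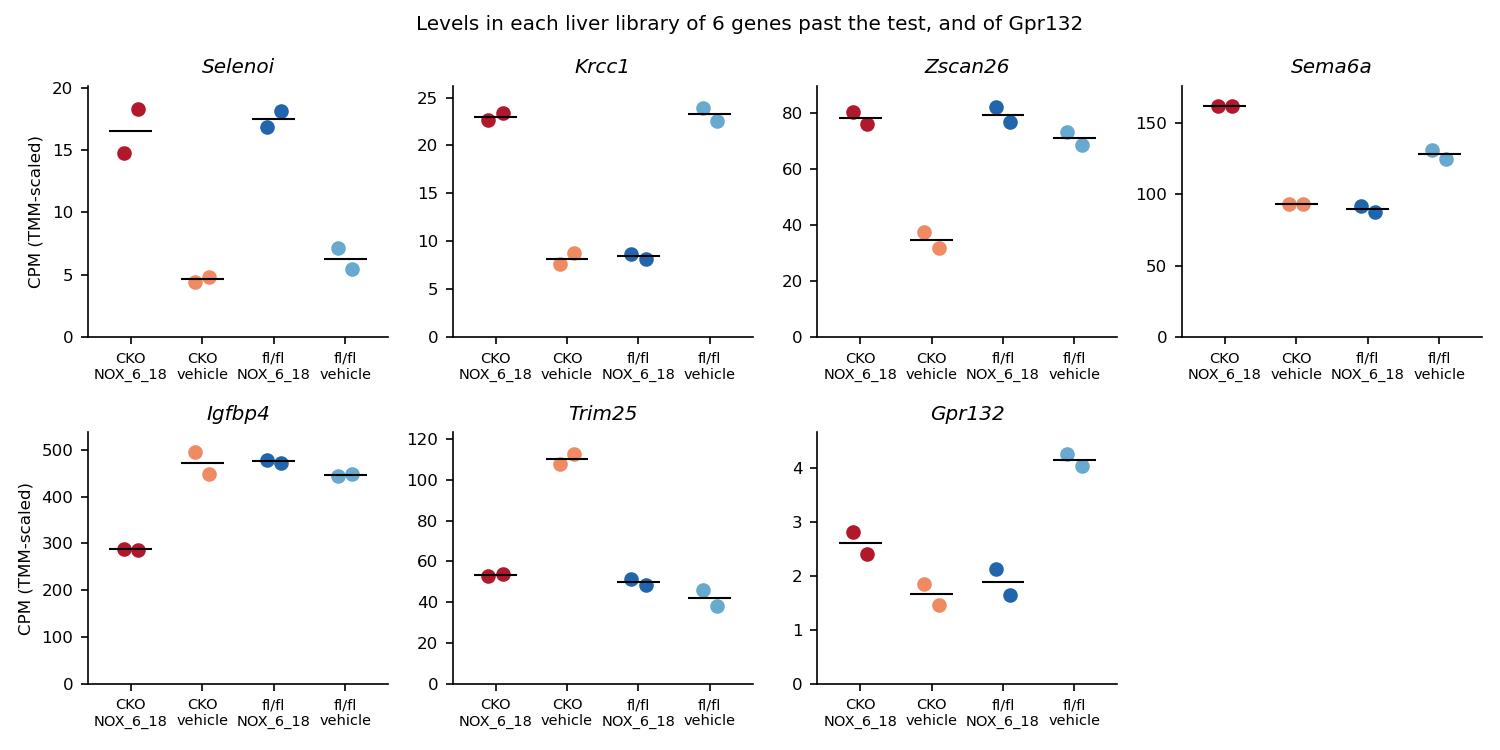
CPM (vertical axis, from 0) of 6 called genes and of Gpr132 in each of the 8 liver libraries, by genotype and treatment, with a point for each library and a line for the mean of 2. Krcc1 and Sema6a are high in CKO with NOX_6_18 and in fl/fl with vehicle, Trim25 is high in CKO with vehicle alone, and Igfbp4 is low in CKO with NOX_6_18 alone.

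Set against the fl/fl livers, the 6 genes described fell into distinct arrangements. For Krcc1 and Sema6a the fl/fl response ran in the opposite direction. Krcc1 had 8.71 and 8.14 CPM in fl/fl with NOX_6_18, against 23.9 and 22.6 CPM in fl/fl with vehicle, so that its low level was shared by CKO vehicle and fl/fl NOX_6_18 and its high level by the other 2 groups. Sema6a had 91.9 and 87.5 CPM in fl/fl with NOX_6_18, against 131 and 125 CPM in fl/fl with vehicle. Their fl/fl log2 fold changes of -1.46 and -0.51 each passed (edgeR quasi-likelihood, adjusted p = 0.000164 and 0.000878). The differences between the CKO and fl/fl responses were 2.95 ± 0.16 for Krcc1 and 1.31 ± 0.08 for Sema6a, and each passed (edgeR quasi-likelihood, adjusted p = 7.62e-05 and 9.98e-05).

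For Trim25, Zscan26 and Igfbp4 a single CKO group stood away from the other 3 liver groups. Trim25 had 51.2 and 48.7 CPM in fl/fl with NOX_6_18 and 46.0 and 38.1 CPM in fl/fl with vehicle, below both CKO vehicle libraries. Zscan26 had 82.1 and 76.8 CPM in fl/fl with NOX_6_18 and 73.3 and 68.7 CPM in fl/fl with vehicle, above both CKO vehicle libraries. Igfbp4 had 480 and 471 CPM in fl/fl with NOX_6_18 and 445 and 448 CPM in fl/fl with vehicle, and here the CKO NOX_6_18 libraries were the low ones. Their fl/fl log2 fold changes of 0.25, 0.16 and 0.09 did not pass (edgeR quasi-likelihood, adjusted p = 0.182, 0.406 and 0.396). The differences between responses were -1.30 ± 0.13, 1.01 ± 0.13 and -0.81 ± 0.07, and each passed (edgeR quasi-likelihood, adjusted p = 0.00126, 0.00492 and 0.000777).

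Selenoi was the called gene that moved the same way in both genotypes. It had 16.9 and 18.1 CPM in fl/fl livers with NOX_6_18, against 7.15 and 5.45 CPM in fl/fl livers with vehicle, a log2 fold change of 1.47 ± 0.17 (edgeR quasi-likelihood, adjusted p = 0.00152). The difference between its responses was 0.36 ± 0.24 and did not pass (edgeR quasi-likelihood, adjusted p = 0.577). All 4 NOX_6_18 livers lay above all 4 vehicle livers for this gene.

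**Figure D3:**
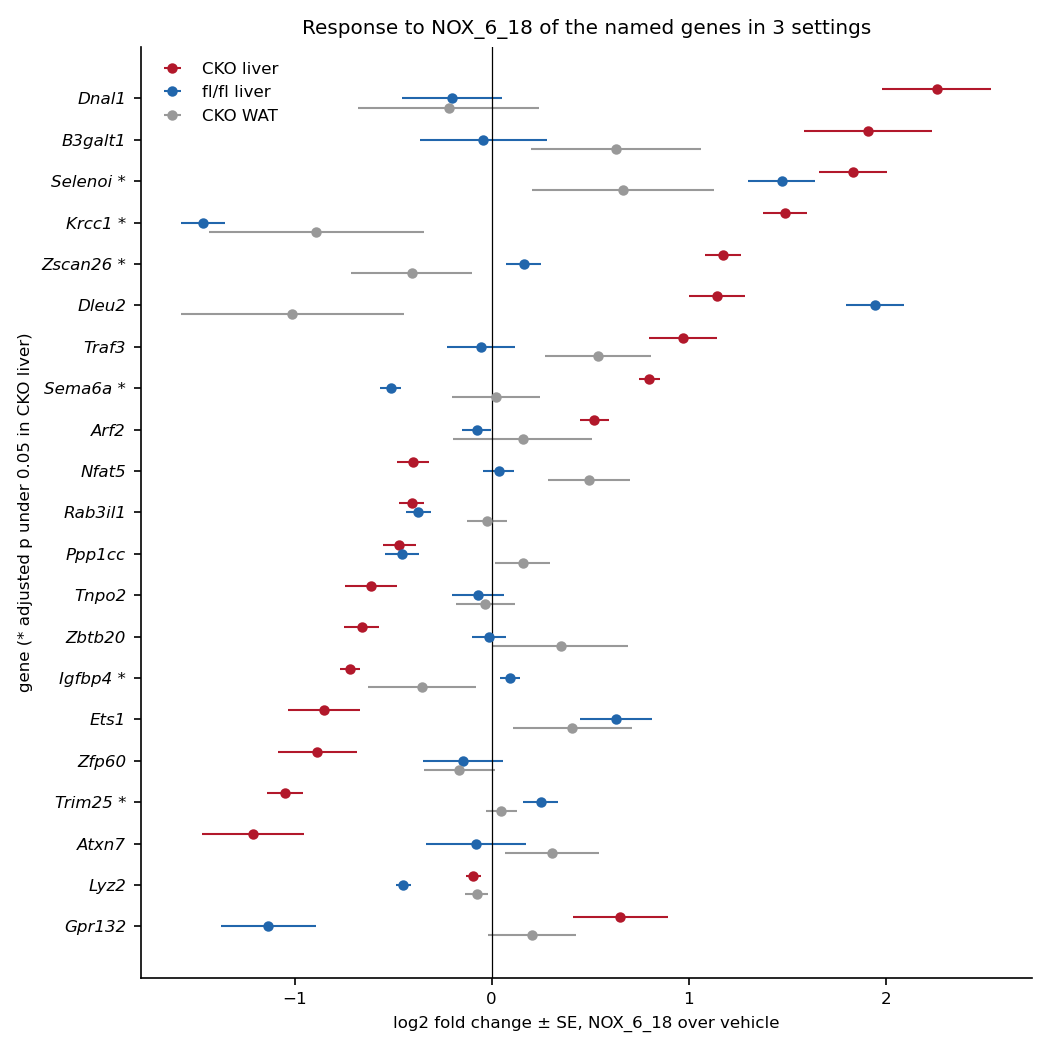
Log2 fold change of NOX_6_18 over vehicle, with its SE, in CKO liver (red), fl/fl liver (blue) and CKO WAT (grey) for the genes named by rank in CKO liver and for Lyz2 and Gpr132, with an asterisk on 6 genes called in CKO liver. The red and blue points of Krcc1 and Sema6a lie on opposite sides of 0, and those of Selenoi lie on the same side.

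In WAT of the CKO mice, none of the 7 genes was called between NOX_6_18 and vehicle, where 4 of 25871 genes were called in all (0.0155%), 1 higher (0.00387%) and 3 lower (0.0116%). Trim25 had 212 and 211 CPM in CKO WAT with NOX_6_18, against 192 and 217 CPM with vehicle. Selenoi had 29.6 and 15.4 CPM with NOX_6_18, against 13.3 and 15.1 CPM with vehicle. The 2 NOX_6_18 libraries of WAT thus differed from each other in Selenoi by more than the vehicle libraries did. Over the 16 libraries the difference between the CKO liver and the CKO WAT response was called for 0 of 26751 genes (0%) by edgeR, with 1345 genes at an unadjusted p under 0.05, for 44 genes by DESeq2 and for 1 gene by limma-voom. Trim25 came nearest among the 7, with a liver minus WAT difference of -1.09 ± 0.13 (edgeR quasi-likelihood, adjusted p = 0.0711).

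The spread between libraries of 1 group gives the scale for these folds. Among the 4 liver groups, the 2 libraries of a group differed by at most 1.31-fold for any of the 7 genes, less than the smallest called fold of 1.64. The test took its spread from these same liver groups, so a small spread there is part of being called and adds no support. Over all 8 groups, however, 5 of the 7 genes reached 1.64-fold between 2 libraries of some group, as did 14.9% of 12426 genes with 50 counts or more in each of the 16 libraries. Krcc1 had 49.4 and 16.5 CPM in the 2 WAT libraries of fl/fl mice with NOX_6_18, a 2.97-fold difference within 1 group that was as large as its 2.80-fold change in CKO liver. It had 17.2 and 48.4 CPM in the 2 CKO WAT libraries with vehicle. Igfbp4 had 710 and 415 CPM in the 2 fl/fl WAT libraries with vehicle, 1.71-fold apart. Selenoi had 26.5 and 10.6 CPM in those 2 libraries, 2.48-fold apart, against its 3.56-fold change in CKO liver. It had 28.6 and 16.1 CPM in the 2 fl/fl WAT libraries with NOX_6_18. For Krcc1 and Igfbp4, then, libraries of 1 group in WAT differed by as much as the CKO liver groups did, and the part of this spread in the liver result was not tested.

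Below the threshold, the genes with the smallest p in each direction are given by value, among those whose groups did not overlap and whose higher group averaged 5 CPM or more. Dnal1, B3galt1 and Zfp60 reach that level in the higher group alone. Dnal1, an axonemal dynein light chain, had 5.05 and 5.79 CPM in CKO livers with NOX_6_18, against 0.791 and 1.48 CPM with vehicle, a log2 fold change of 2.26 ± 0.28 (edgeR quasi-likelihood, adjusted p = 0.073). The fl/fl livers had 4.95 and 5.09 CPM with NOX_6_18, against 6.16 and 5.36 CPM with vehicle, so that both CKO vehicle libraries were the low ones. Without vehicle replicate 2 Dnal1 passed, at 2.77 (edgeR quasi-likelihood, adjusted p = 0.00895). Its exons overlap those of Pnma1. Dleu2, the long non-coding host transcript of miR-15a and miR-16-1, had 23.9 and 24.0 CPM with NOX_6_18, against 11.97 and 9.67 CPM with vehicle, a log2 fold change of 1.14 ± 0.14 (edgeR quasi-likelihood, adjusted p = 0.073). Its fl/fl log2 fold change of 1.94 ± 0.15 passed (edgeR quasi-likelihood, adjusted p = 0.000159). Arf2, a small GTPase of vesicle traffic, had 33.1 and 34.5 CPM with NOX_6_18, against 24.3 and 22.8 CPM with vehicle. B3galt1, a galactosyltransferase, had 10.98 and 5.30 CPM with NOX_6_18, against 1.99 and 2.35 CPM with vehicle. It was not called in the main fit, and without NOX_6_18 replicate 2 its estimate was 2.34 on the log2 scale. Traf3, a signalling adaptor downstream of Toll-like and TNF-family receptors, had 13.3 and 10.1 CPM with NOX_6_18, against 6.28 and 5.62 CPM with vehicle.

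On the lower side, Zbtb20, a zinc finger repressor active in hepatocytes, had 74.4 and 73.7 CPM with NOX_6_18, against 113 and 121 CPM with vehicle, a log2 fold change of -0.66 ± 0.09 (edgeR quasi-likelihood, adjusted p = 0.108). Without the fl/fl vehicle libraries in the fit Zbtb20 passed (edgeR quasi-likelihood, adjusted p = 0.0277). Ets1, a transcription factor of endothelium and lymphocytes, had 199 and 201 CPM with NOX_6_18, against 360 and 360 CPM with vehicle, a log2 fold change of -0.85 ± 0.18 (edgeR quasi-likelihood, adjusted p = 0.944). Ets1 was separated cleanly in CKO livers, while the 2 fl/fl vehicle libraries of the same fit were at 286 and 172 CPM. Without those 2 libraries in the fit Ets1 passed (edgeR quasi-likelihood, adjusted p = 0.00405), as it did with only the 4 CKO libraries (adjusted p = 0.0163). Nfat5, the osmotic stress factor, had 84.6 and 75.1 CPM with NOX_6_18, against 101 and 110 CPM with vehicle. Atxn7, a subunit of the SAGA chromatin complex, had 13.1 and 16.9 CPM with NOX_6_18, against 33.4 and 36.1 CPM with vehicle. Rab3il1, Ppp1cc, Tnpo2 and Zfp60 had log2 fold changes of -0.41, -0.47, -0.61 and -0.88. None of these genes, higher or lower, was called by edgeR in the main fit over the 8 liver libraries. Without a filter, Dnal1, Dleu2, B3galt1, Zbtb20 and Ets1 passed (edgeR quasi-likelihood, adjusted p = 0.0015, 0.0024, 0.025, 0.0022 and 0.041). Dnal1, Dleu2 and Zbtb20 passed with a robust spread, Dnal1 with library totals, and Dleu2 with a replicate block or limma-voom. DESeq2 called each of them except Ets1 and Zfp60.

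The IGF and growth hormone axis was the list with a called member, 1 of 16 tested genes against 0.0359% of all genes, and that member was Igfbp4. The median log2 fold change of the 16 genes was 0.01. Igf1, the circulating growth factor itself, had 54.4 and 54.4 CPM in CKO livers with NOX_6_18, against 52.6 and 57.4 CPM with vehicle, with overlapping groups. Igfbp7 had 755 and 805 CPM with NOX_6_18, against 719 and 686 CPM with vehicle, a log2 fold change of 0.15 ± 0.05. Igfbp2 had 16.4 and 13.3 CPM with NOX_6_18, against 11.1 and 11.6 CPM with vehicle, and Igfbp3 had 19.3 and 20.3 CPM with NOX_6_18, against 19.4 and 18.9 CPM with vehicle. Igfals, which forms the circulating ternary complex, had 3.20 and 4.12 CPM with NOX_6_18, against 0.743 and 2.57 CPM with vehicle. The other binding proteins thus lay higher with NOX_6_18 or overlapped with vehicle, and none of them was called (edgeR quasi-likelihood, adjusted p = 1 for each).

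The other 38 of the 39 gene lists examined had 0 called members. With 0.0359% of all tested genes called, lists of this length would seldom hold a called gene. A count of 0 called therefore does not set a list apart. Of 695 listed genes tested, 31 (4.46%) had an unadjusted p under 0.05, close to the 4.06% of all tested genes. The list medians ran from -0.09 to 0.15 on the log2 scale, and 37 of the 39 lay between -0.1 and 0.1.

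**Figure D4:**
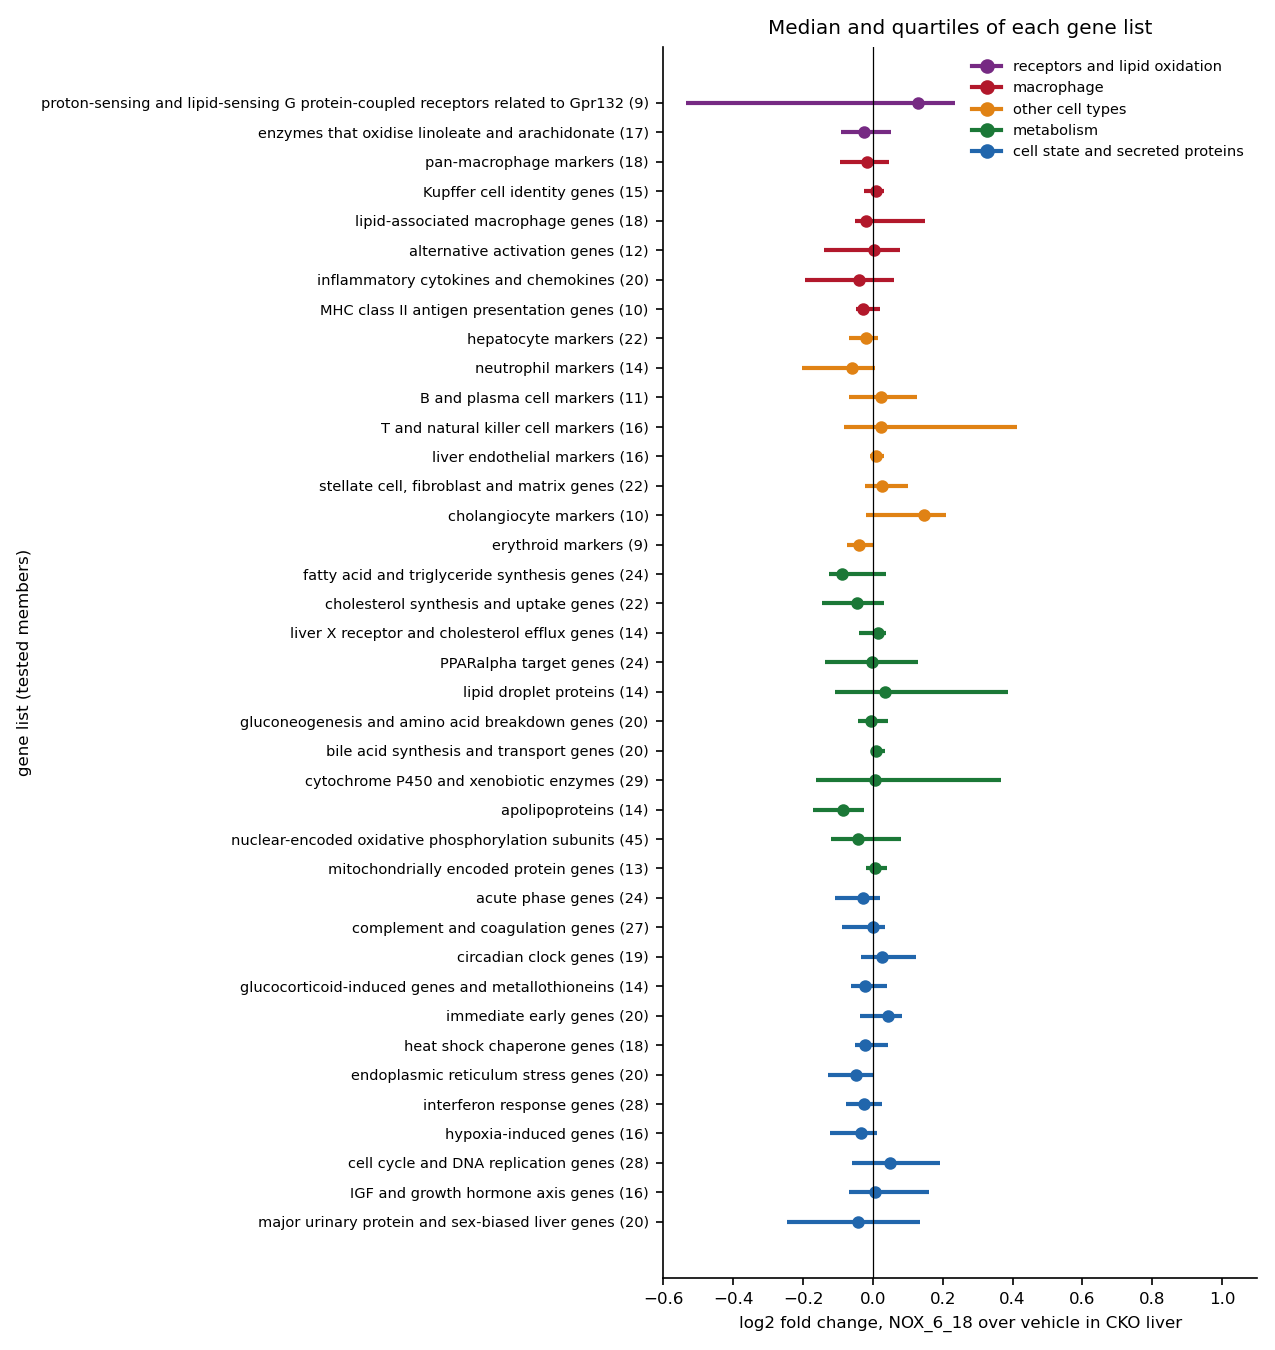
Median (point) and quartiles (line) of the log2 fold change of NOX_6_18 over vehicle in CKO liver for each of the 39 gene lists, coloured by role, with the number of tested members in brackets. The medians of 37 lists lie within 0.1 of 0, and the receptor list and the cholangiocyte markers lie at 0.13 and 0.15.

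Among receptors related to Gpr132, 0 of 9 tested members were called, with a median of 0.13. The proton sensor Gpr4 had 27.2 and 21.96 CPM in CKO livers with NOX_6_18, against 22.3 and 22.3 CPM with vehicle, and the proton sensor Gpr65 had 11.1 and 12.4 CPM with NOX_6_18, against 10.3 and 11.3 CPM with vehicle. Gpr183, a receptor for oxysterols, had 3.61 and 3.04 CPM with NOX_6_18, against 2.46 and 3.20 CPM with vehicle, and Hcar2 had 3.67 and 4.48 CPM with NOX_6_18, against 3.46 and 3.20 CPM with vehicle. Hcar1, Ffar1, Ffar4 and the untested Gpr31b stayed below 0.5 CPM in each of the 4 libraries. Listed genes of linoleate and arachidonate oxidation, among them genes that act on the products such as Hpgd and Ephx2, had 0 of 17 called and a median of -0.03. Alox15, which oxidises linoleate and arachidonate, had 6.59 and 8.81 CPM with NOX_6_18, against 7.48 and 8.29 CPM with vehicle.

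Listed macrophage genes gave no call, where 0.0359% of all tested genes were called. Pan-macrophage markers had 0 of 18 called and a median of -0.02, and Kupffer cell identity genes had 0 of 15 called and a median of 0.01. Clec4f, a Kupffer cell lectin, had 561 and 569 CPM in CKO livers with NOX_6_18, against 575 and 577 CPM with vehicle. Timd4, a phosphatidylserine receptor of long-lived Kupffer cells, had 42.2 and 43.2 CPM with NOX_6_18, against 39.9 and 42.6 CPM with vehicle. Adgre1 and Csf1r had log2 fold changes of -0.01 ± 0.06 and 0.05 ± 0.05. Lyz2, the gene that drives Cre, had 267 and 271 CPM with NOX_6_18, against 287 and 288 CPM with vehicle, a log2 fold change of -0.09 ± 0.04 (edgeR quasi-likelihood, adjusted p = 1).

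Lipid-associated macrophage genes had 0 of 18 called and a median of -0.02. Lgals3, a galectin of these macrophages, had 37.5 and 35.2 CPM in CKO livers with NOX_6_18, against 28.7 and 27.6 CPM with vehicle, a log2 fold change of 0.37 ± 0.08 (edgeR quasi-likelihood, adjusted p = 0.956). Trem2 had 6.85 and 6.01 CPM with NOX_6_18, against 4.55 and 5.58 CPM with vehicle, and Gpnmb had 2.83 and 1.22 CPM with NOX_6_18, against 2.18 and 2.73 CPM with vehicle. The groups overlapped for Gpnmb. Mmp12 had 3.20 and 3.42 CPM with NOX_6_18, against 2.02 and 2.45 CPM with vehicle, a log2 fold change of 0.57 ± 0.16 that was not called. Over the list, 7 of 18 estimates were above 0. Alternative activation genes had 0 of 12 called, inflammatory cytokines and chemokines 0 of 20, and MHC class II presentation genes 0 of 10, with medians of 0.0031, -0.04 and -0.03. Il1b had 28.7 and 27.9 CPM with NOX_6_18, against 28.8 and 28.8 CPM with vehicle, and Mrc1, the mannose receptor, had 1298 and 1301 CPM with NOX_6_18, against 1260 and 1284 CPM with vehicle. Tnf had 1.05 and 1.55 CPM with NOX_6_18, against 2.33 and 1.58 CPM with vehicle, a log2 fold change of -0.59 ± 0.31.

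Listed markers of the other liver cells gave no call, where 0.0359% of all tested genes were called. The medians were -0.02 for 22 hepatocyte markers, 0.01 for 16 endothelial markers, 0.03 for 22 stellate cell, fibroblast and matrix genes and -0.06 for 14 neutrophil markers, with 0 called in each. Albumin (Alb) had 1743 and 1762 CPM with NOX_6_18, against 1770 and 1782 CPM with vehicle, and the sinusoidal scavenger receptor Stab2 had 1971 and 1875 CPM with NOX_6_18, against 1830 and 1914 CPM with vehicle. Col1a1 had 37.6 and 33.3 CPM with NOX_6_18, against 35.6 and 33.3 CPM with vehicle. Erythroid markers, with 0 of 9 called, summed to 5726 and 5853 CPM per kb with NOX_6_18, against 6003 and 5835 CPM per kb with vehicle. Their log2 fold changes ran from -1.41 to 1.48, the lowest being that of Slc4a1, the red cell anion exchanger. It had 1.76 and 0.864 CPM with NOX_6_18, against 3.96 and 3.02 CPM with vehicle, with both NOX_6_18 libraries lower (edgeR quasi-likelihood, adjusted p = 1). B and plasma cell markers had 0 of 11 called and T and natural killer cell markers 0 of 16, with medians of 0.02 for each list, and ranges of -0.48 to 0.52 and of -1.16 to 0.64. Cholangiocyte markers had the highest median, 0.15, with 0 of 10 called and 7 of 10 estimates above 0. The keratin Krt7 had 11.6 and 14.9 CPM with NOX_6_18, against 11.1 and 10.7 CPM with vehicle, and the keratin Krt19 had 19.99 and 18.3 CPM with NOX_6_18, against 22.4 and 22.2 CPM with vehicle. The groups did not overlap for either keratin, and their estimates had opposite signs, at 0.28 ± 0.14 for Krt7 and -0.22 ± 0.09 for Krt19.

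Metabolic genes, which the high-fat diet and the liver make of interest, also had 0 called in each list. Of all tested genes 0.0359% were called. The RNA was mixed and the share of hepatocytes in it was not measured, so these lists do not describe hepatocytes alone. The 36 listed cytochrome P450 and xenobiotic genes summed to 301 and 286 CPM with NOX_6_18, against 305 and 299 CPM with vehicle. Fatty acid and triglyceride synthesis genes had a median of -0.09 over 24 genes, the lowest of the 39 medians. Within it Fasn, fatty acid synthase, had 40.2 and 41.9 CPM in CKO livers with NOX_6_18, against 38.7 and 36.9 CPM with vehicle, while the desaturase Scd1 had 76.8 and 83.3 CPM with NOX_6_18, against 87.1 and 86.1 CPM with vehicle. Cholesterol synthesis and uptake genes had a median of -0.05 over 22 genes, PPARalpha targets one of -0.0022 over 24 genes and apolipoproteins one of -0.09 over 14 genes. Lpcat3, a phospholipid remodelling enzyme induced by liver X receptors, had 19.2 and 21.1 CPM with NOX_6_18, against 23.9 and 27.1 CPM with vehicle, a log2 fold change of -0.34 ± 0.10 (edgeR quasi-likelihood, adjusted p = 1). Ppargc1a, a coactivator of gluconeogenesis, had 1.79 and 1.49 CPM with NOX_6_18, against 2.33 and 3.25 CPM with vehicle. Pck1, the rate-limiting enzyme of gluconeogenesis, had 194 and 195 CPM with NOX_6_18, against 196 and 196 CPM with vehicle, and Cyp7a1, the rate-limiting enzyme of bile acid synthesis, had 4.51 and 4.40 CPM with NOX_6_18, against 3.55 and 5.01 CPM with vehicle. The lists of lipid droplet proteins, bile acid genes, liver X receptor targets, gluconeogenesis genes and cytochrome P450 enzymes had medians of 0.03, 0.01, 0.01, -0.0048 and 0.01. The 45 nuclear-encoded subunits of oxidative phosphorylation and the 20 major urinary protein and sex-biased genes each had a median of -0.04.

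Genes of cell state and of secreted liver proteins had 0 called outside the IGF list, against 0.0359% of all tested genes. The medians were -0.03 for 24 acute phase genes, 0.0013 for 27 complement and coagulation genes, 0.03 for 19 circadian clock genes, 0.04 for 20 immediate early genes, -0.05 for 20 endoplasmic reticulum stress genes and -0.03 for 28 interferon response genes. Manf, a secreted stress factor of the endoplasmic reticulum, had 40.4 and 39.9 CPM with NOX_6_18, against 49.6 and 45.1 CPM with vehicle, a log2 fold change of -0.24 ± 0.07. The clock output gene Dbp had 75.1 and 66.6 CPM with NOX_6_18, against 77.4 and 65.5 CPM with vehicle. Heat shock chaperone, hypoxia, glucocorticoid and cell cycle lists had medians of -0.02, -0.03, -0.02 and 0.05.

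Of the 13 mitochondrially encoded protein genes, 12 had log2 fold changes of -0.03 to 0.05. The exception was mt-Atp6, a subunit of ATP synthase, with 3977 and 3856 CPM in CKO livers with NOX_6_18, against 4015 and 25142 CPM with vehicle. Its log2 fold change of -1.90 ± 0.64 was not called (edgeR quasi-likelihood, adjusted p = 1), and without vehicle replicate 2 it was -0.04. Without vehicle replicate 1 the estimate was -2.68 and passed (edgeR quasi-likelihood, adjusted p = 7.77e-06). In fl/fl livers it had 23418 and 26678 CPM with NOX_6_18, against 4443 and 4736 CPM with vehicle, so that the 8 livers lay at 2 levels that crossed the groups. The neighbouring mt-Atp8, whose reading frame overlaps mt-Atp6, had 8666 and 9257 CPM in CKO livers with NOX_6_18, against 9167 and 9154 CPM with vehicle.

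Other genes also lay at separate levels in libraries of 1 group. Rac1, a small GTPase of the cytoskeleton, had 81.8 and 275 CPM in the 2 CKO NOX_6_18 livers, against 72.2 and 62.7 CPM with vehicle, and 62.0 and 244 CPM in the fl/fl NOX_6_18 livers. Nfe2l1, a stress-response transcription factor, had 175 and 50.8 CPM with NOX_6_18, against 49.7 and 51.2 CPM with vehicle. Mup17, a major urinary protein gene with near-identical copies, had 111 and 75.5 CPM with NOX_6_18, against 333 and 124 CPM with vehicle. None of the 3 was called by edgeR over all libraries, and without vehicle replicate 2 Mup17 passed, at -1.84 (edgeR quasi-likelihood, adjusted p = 0.0234). In Rac1, Nfe2l1 and Mup17 alike, 1 library of a group stood away from its replicate. The called gene Krcc1 also lay at 2 separate levels within each tissue. Its livers had 22.6 to 23.9 CPM in CKO with NOX_6_18 and fl/fl with vehicle and 7.64 to 8.76 CPM in the other livers, and its WAT libraries had 48.4 and 49.4 CPM in 2 libraries and 16.5 to 19.9 CPM in the other 6. In liver the Krcc1 levels followed the groups, and in WAT they divided 2 groups. How reads were assigned to genes in the deposited counts is not given in the sources used here, and its part in the Krcc1 fold was not tested.

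In CKO livers, libraries of different treatment were no further apart over all genes than libraries of 1 group. Between a CKO NOX_6_18 and a CKO vehicle liver, 797 to 829 of 13029 genes with 50 counts or more in each liver library differed by at least 1.5-fold (4 pairs, 6.12% to 6.36%). Between the 2 libraries of the same liver group, 780 to 852 genes did (4 pairs). The fl/fl vehicle livers stood apart, with 1631 to 1763 genes at that distance from each of the other 6 livers. The fl/fl NOX_6_18 libraries, by contrast, were 752 to 831 genes away from the CKO libraries.

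**Figure D5:**
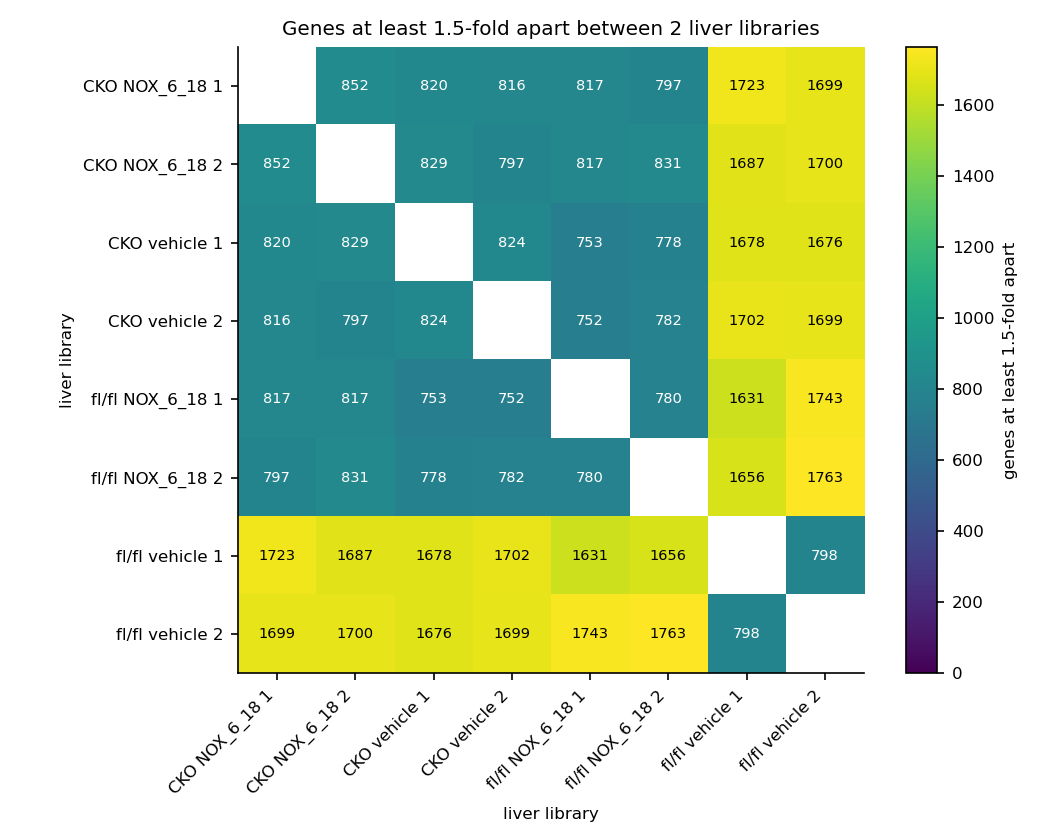
Number of genes at least 1.5-fold apart between each pair of the 8 liver libraries, of 13029 genes with 50 counts or more in each, by genotype, treatment and replicate on both axes. Pairs of CKO NOX_6_18 with CKO vehicle (797 to 829) lie in the range of same-group pairs (780 to 852), and pairs with an fl/fl vehicle library reach 1631 to 1763.

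The fl/fl vehicle libraries therefore bear on each comparison of the CKO with the fl/fl response. In fl/fl livers 1077 genes were called between NOX_6_18 and vehicle (5.52%), 738 higher (3.78%) and 339 lower (1.74%). The responses differed between genotypes for 478 genes (2.45%), 114 with a higher (0.584%) and 364 with a lower CKO response (1.87%). Across the 10232 genes at 5 CPM or more, Pearson's r between the CKO and the fl/fl log2 fold changes was -0.06, as a description across genes that are not independent replicates. S100a9, a calprotectin subunit of neutrophils, had 33.8 and 34.8 CPM in CKO livers with NOX_6_18 and 36.7 and 34.5 CPM with vehicle, against 32.6 and 32.2 CPM in fl/fl with NOX_6_18 and 1.39 and 0.971 CPM in fl/fl with vehicle. Ngp, a neutrophil granule gene, had 12.9 and 14.7 CPM and 15.3 and 12.1 CPM in the same CKO groups, against 13.8 and 15.8 CPM in fl/fl with NOX_6_18 and 0.137 and 0.177 CPM in fl/fl with vehicle. Mmp12, a macrophage elastase, ran the other way, with 3.20 and 3.42 CPM and 2.02 and 2.45 CPM in the CKO groups, against 3.01 and 3.41 CPM in fl/fl with NOX_6_18 and 17.4 and 18.9 CPM in fl/fl with vehicle. For these 3 genes the difference between responses passed, at -4.82, -6.55 and 3.06 (edgeR quasi-likelihood, adjusted p = 1.25e-05, 2.32e-05 and 0.000316), and the fl/fl vehicle group was the one that stood away from the other 3. Of the 14 neutrophil markers, 10 had a called difference between responses, against 2.45% of all tested genes. Within CKO livers 0 of them were called, against 0.0359% of all tested genes. Called differences between responses were also held by 13 of 22 hepatocyte markers, 15 of 24 acute phase genes and 14 of 18 heat shock chaperone genes. Genotype and whatever else sets the 2 fl/fl vehicle libraries apart cannot be told apart in this contrast, and a comparison of the responses without them is not possible.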

How the data were processed

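RNA-seq counts were analysed from 16 libraries, 8 of liver and 8 of WAT, 2 for each genotype and treatment. The authors deposited raw counts for each of 55421 Ensembl genes and each library, with no normalization. The submitters' processing notes list the GRCm38 build and, without role or order, DESeq 1.8.3, HISAT and featureCounts 1.5.0, and the labels' protocols name TRIzol and a KAPA stranded kit. The strand setting of the counting is not given in the sources used here, so that overlapping genes, which make up 35.1% of those tested, are uncertain. Symbols and positions came from GENCODE M21 (GRCm38), with 99.5% of genes matched.

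The deposited counts were tested with edgeR 4.0.16 in R 4.3.3 (filterByExpr by group, TMM scaling, 1 coefficient per group, quasi-likelihood F test, Benjamini-Hochberg adjustment over all 19515 genes tested). The 8 liver libraries entered 1 fit, the 8 WAT libraries another, and all 16 the contrast between tissues. CPM is the count divided by the library total times the TMM factor, and the SE is the log2 fold change divided by the root of F. The 8 liver totals ran from 45624957 to 60761705 counts, of which 43.0% to 44.9% were mitochondrial, and TMM factors from 0.98 to 1.02. A floor of 3 counts corresponds to 0.0485 to 0.0589 CPM in the 4 CKO livers and covers counting error only. No 2 libraries held identical counts. The script was tested on simulated data.

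The members and gene lists were chosen with earlier results of these data known. The text names Gpr132, Lyz2, the genes called in CKO liver (1 of the 7 is not reported here), the 10 genes of smallest p in each direction with a mean of 5 CPM in the higher group and separated groups, members of each list, the genes that differed most between 2 libraries of a CKO group, and up to 5 genes each way for each interaction. List examples beyond those of smallest p or highest level were chosen after their values were seen. Alternatives were RLE factors, library totals, other filters, no mitochondrial genes, DESeq2 1.42.0, limma-voom 3.58.1, a replicate block, other sets of libraries and each library left out. The fit without fl/fl vehicle libraries and the robust spread were chosen after seeing the data.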

Additional observations from a re-analysis of the deposited data

Results flagged for a closer look

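For 11 of the genes named by the rule for CKO liver, the response to NOX_6_18 differed between CKO and fl/fl livers by the test of the difference itself (edgeR quasi-likelihood, adjusted p under 0.05). Over all 19515 tested genes, this difference was called for 478 (2.45%). Apart from Gpr132 and Lyz2, the genes were picked by their p in CKO livers, which is part of the difference. The choice therefore favoured called differences, and the count of 11 does not set these genes apart. On the log2 scale, the CKO minus fl/fl difference was 2.95 for Krcc1, 2.46 for Dnal1, 1.79 for Gpr132, 1.31 for Sema6a, 1.01 for Zscan26, 0.60 for Arf2 and 0.36 for Lyz2. It was -1.48 for Ets1, -1.30 for Trim25, -0.81 for Igfbp4 and -0.65 for Zbtb20. Krcc1 and Sema6a had opposite called responses in the 2 genotypes. For Lyz2 the CKO response was -0.09 and the fl/fl response -0.45, with 267 and 271 CPM and 287 and 288 CPM in CKO with NOX_6_18 and with vehicle, against 283 and 280 CPM in fl/fl with NOX_6_18 and 384 and 384 CPM in fl/fl with vehicle. All 11 differences include the fl/fl vehicle libraries, which stood apart from the other livers over all genes. In Trim25, Zscan26, Igfbp4, Dnal1, Arf2 and Zbtb20, however, a single CKO group was the one away from the other liver groups. What sets either group apart was not tested.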

How the results depend on the processing

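The count of 7 called genes was 7 to 10 under RLE factors, library totals, no mitochondrial genes, the filter at 50 counts, limma-voom, only the groups compared, no fl/fl vehicle libraries and a robust spread. It was 15 without a filter, 35 by DESeq2 and 4 with a log2 fold change of at least 1. Leaving out 1 of the 4 libraries gave 15 to 28 calls, where the lone library of a group is assumed to vary like the other groups (15 without vehicle replicate 1, 28 without vehicle replicate 2, 21 without NOX_6_18 replicate 1 and 23 without NOX_6_18 replicate 2). Outside the fold limit of 1, under which Sema6a and Igfbp4 are no longer counted, the 6 genes described were called in all 15 alternatives, except Selenoi, lost in 1 as given above. The 478 genes whose response differed between genotypes became 829 by DESeq2, 208 with a difference of at least 1 and 288 to 344 with 1 library left out (288 without CKO NOX_6_18 replicate 1). The count of 0 between tissues became 2 with library totals, 2 without a filter, 44 by DESeq2, 1 by limma-voom and 2 to 12 with 1 library left out. Same-numbered libraries did not deviate together (correlation of -0.02 between CKO groups), and a replicate block gave 8 calls in CKO liver, 390 for the difference between genotypes and 0 between tissues. Gpr132 kept its side of the threshold, at 0.49 to 0.84 with 1 library left out. With 1 library left out, Clock ranged from -0.58 to 0.0095 and Hspa8 from -0.036 to 0.34, and so changed sign. Over the genes followed through these alternatives, the called ones included, 29 pairs of gene and alternative added a call and 2 lost one. The loss for Selenoi given above is among the 2. Of the pairs of list and alternative, the median moved by more than the spread between libraries in 74 and did not in 510. These counts include the alternatives with 1 library left out. The cause of each change was not tested. Gpr132 rests on 84 to 144 counts in each CKO liver, which limits its precision.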
